A study of Mus musculus with 10 samples.

Results

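Acetylcholine genes were examined in the hippocampus of mice with and without neuronal overexpression of PGC-1α, a coactivator of mitochondrial genes. The list held 10 genes. Chat, Slc5a7 and Slc18a3 serve synthesis and transport of the transmitter, Ache and Bche its degradation, and Chrm1, Chrm2, Chrm3, Chrna7 and Chrna4 encode its receptors. All gene probes named for these symbols through a RefSeq accession were taken, which gave 18 probes for the 10 genes out of 56605 gene probes and 23458 named genes on the array. PGC-1αf/f mice carry PGC-1α at the Rosa26 locus behind a floxed PGK-neo-STOP cassette and no Cre. In nPGC-1α mice Eno2-Cre, driven by the promoter of neuron-specific enolase, removes the cassette, so that PGC-1α and an IRES-eGFP reporter are expressed in neurons. Both groups had a C57BL/6 background, were given as males of 12 weeks, and had no surgery. Each group held 5 mice, with 1 array (1-colour, Cy3) of total hippocampal RNA per mouse, and the comparison asks how the transgene alters hippocampal expression under basal conditions.

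Acetylcholine is made from choline and acetyl-CoA by choline acetyltransferase, packed into vesicles, released, and cleaved by acetylcholinesterase, after which choline is taken up again by the terminal. In the hippocampus most of it comes from axons of the medial septum and the diagonal band, whose cell bodies lie outside the hippocampus, so that mRNAs of the supply side are scarce in the tissue while receptor mRNAs are made by its own neurons. Muscarinic M1 and M3 receptors couple to Gq and phospholipase C and M2 receptors to Gi/o, whereas nicotinic receptors are ion channels of 5 subunits. The medial habenula, which lies close to the dorsal hippocampus, holds neurons that make acetylcholine themselves and carry nicotinic subunits of their own.

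The supply genes share their place in the genome in part. Slc18a3, the vesicular acetylcholine transporter, lies inside the Chat gene on the same strand, and Slc5a7, the high-affinity choline transporter, lies on another chromosome. The 250 bases before the annotated start of each are shown because 1 of the 3 Chat probes and every probe of the other 2 genes stood highest on the same array, as described below. They are RefSeq sequence of GRCm38.p6, read 5′ to 3′, and capitals mark motif matches on either strand.
Chat, chr14:32465910-32466159, minus strand: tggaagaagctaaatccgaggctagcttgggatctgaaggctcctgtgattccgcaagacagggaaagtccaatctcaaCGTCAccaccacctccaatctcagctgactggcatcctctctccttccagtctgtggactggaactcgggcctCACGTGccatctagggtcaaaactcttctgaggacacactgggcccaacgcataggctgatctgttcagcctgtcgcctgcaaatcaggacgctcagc
Slc18a3, chr14:32464851-32465100, minus strand: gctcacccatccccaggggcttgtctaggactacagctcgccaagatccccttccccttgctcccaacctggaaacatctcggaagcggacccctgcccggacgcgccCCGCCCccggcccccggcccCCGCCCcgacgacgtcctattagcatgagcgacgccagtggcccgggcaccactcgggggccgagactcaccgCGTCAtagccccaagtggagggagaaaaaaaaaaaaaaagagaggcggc
Slc5a7, chr17:54299035-54299284, minus strand: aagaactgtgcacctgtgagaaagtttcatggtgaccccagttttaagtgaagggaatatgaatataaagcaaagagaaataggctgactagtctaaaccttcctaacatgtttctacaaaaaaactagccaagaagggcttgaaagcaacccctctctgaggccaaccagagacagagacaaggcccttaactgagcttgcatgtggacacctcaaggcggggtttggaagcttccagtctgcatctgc
The motifs searched were the GC box GGGCGG, the nuclear receptor core AGGTCA, the NRF1 core TGCGCA, the cAMP response core TGACG, the REST pieces CAGCACC and GGACAG, and the E-box CACGTG. Chat held TGACG 1 time and CACGTG 1 time, Slc18a3 held GGGCGG 2 times and TGACG 1 time, and Slc5a7 held none of them. Over all 32851 windows of this length, TGACG occurred in 17.8%, CACGTG in 6.02%, GGGCGG in 32.7%, GGACAG in 18.7%, AGGTCA in 14.0%, TGCGCA in 6.43% and CAGCACC in 5.73%. These matches describe the letters and are not binding sites. A window was found for 9 of the 10 genes, Chrm1 being the exception.

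Levels are log2 processed intensities relative to the array, so that 0 is the 75th percentile of the array and each step of 1 is a doubling. They can be compared between arrays for 1 probe and not between probes. Arrays were comparable in brightness, with 75th percentiles of 3882.9 to 5253.2 intensity units, but the share of gene spots well above background was 74.5% to 81.5% for PGC-1αf/f against 67.2% to 73.4% for nPGC-1α (exact permutation p 0.00794, the smallest possible with 5 arrays against 5), and the background noise that the scanner software gives was 6.32 ± 1.54 for PGC-1αf/f against 13.8 ± 4.08 for nPGC-1α (SD, n = 5 in each group, exact permutation p 0.00794). Replicates 1 to 4 of both groups shared slide 1 and replicates 5 shared slide 2. On slide 1 all PGC-1αf/f arrays lay in row 1 and all nPGC-1α arrays in row 2. Group and row therefore cannot be told apart on that slide, while both arrays of slide 2 lay in row 1. Ppargc1a itself had a level of 2.20 ± 0.08 in PGC-1αf/f against 2.20 ± 0.11 in nPGC-1α (SD, n = 5 in each group), so the check of the targeted gene did not set the groups apart, and every direction rests on the labels. Y-linked transcripts were well above background on 4 of the 10 arrays, and the other 6 go against the label male. Markers of excitatory neurons, astrocytes, oligodendrocytes and endothelial cells were all measured, so the samples labelled neuron hold whole tissue, in which fewer cells of a type and less RNA per cell cannot be told apart.

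No cholinergic gene passed the adjusted threshold between the groups. Of the 18 probes, 17 probes of 9 genes passed the filter on dim probes, and limma called 0 of these 17 at an adjusted p of 0.05, against 0.00255% of all 39142 probes tested. At an unadjusted p of 0.05, 3 of the 17 passed, and all 3 were higher in nPGC-1α and belonged to receptors (Chrm1, Chrm3 and Chrna4). Over all probes 11.9% passed this threshold, 3.39% with a higher and 8.52% with a lower level in nPGC-1α. The exact Mann-Whitney U test, which the methods name for pairs of groups, gave 0 of 17 at the unadjusted threshold, against 7.54% of all probes. The groups overlapped for each of the 18 probes, while 2.74% of all probes with 10 values did not overlap. The 17 differences split into 9 higher and 8 lower in nPGC-1α, with a median of 0.04 on the log2 scale beside -0.04 for all probes tested, and their adjusted p-values ran from 0.369 to 0.964. Of the 8 lower ones, 3 (1 probe each of Chat, Slc5a7 and Bche) passed the filter only through PGC-1αf/f, where they were higher, so nothing is read from the split.

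By role, the median difference in log2 level was -0.30 for the 2 tested genes of synthesis and transport, 0.17 for the 2 of degradation and 0.27 for the 5 receptors, where the brightest tested probe represents each gene. By these probes both supply genes had a negative and both degradation genes a positive sign, and of the receptors 3 were positive and 2 negative. Other probes of Chat (A_55_P2744606, 0.14) and Bche (A_52_P639223, -0.24) had the opposite sign. Those of Chat (A_55_P1959430), Slc5a7 and Ache had the same sign. The medians and signs are descriptions of so few genes and no test was made of them. Without PGC-1αf/f replicates 1 and 2 the medians were -0.12, 0.19 and -0.01.

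**Figure D1:**
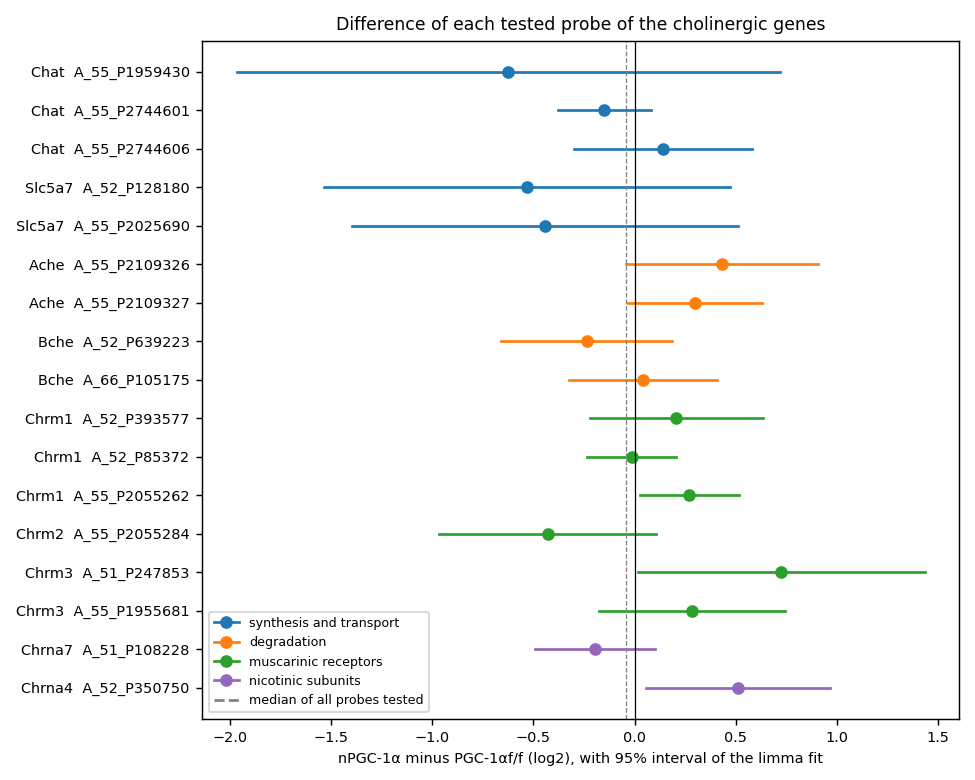
Difference of each of the 17 tested probes (x axis, nPGC-1α minus PGC-1αf/f, log2) with the 95% interval of the limma fit, coloured by role, with 0 as a solid line and the median of all 39142 probes as a dashed line. The intervals of 3 receptor probes (Chrm1, Chrm3 and Chrna4) lie above 0, and those of 1 Chat probe and both Slc5a7 probes are the widest.

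Chat encodes choline acetyltransferase. Its 3 probes did not move together. The probe A_55_P1959430 was at -5.87, -2.72, -5.84, -5.90 and -6.27 in PGC-1αf/f, replicates 1 to 5 in order as in all lists below, and in nPGC-1α at -5.95, -5.69, -5.50, -6.98 and -5.59, where replicate 4 was not well above background. PGC-1αf/f replicate 2 stood more than 2 log2 units above the other 9 arrays, among which the groups overlapped. The difference between the groups was -0.62 (SE 0.61, limma adjusted p 0.702), and without that replicate it was 0.03.

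The remaining pair of Chat probes did not show the high replicate. The probe A_55_P2744606 read -5.08, -5.00, -5.02, -5.07 and -4.87 in PGC-1αf/f against -4.06, -5.03, -5.18, -4.79 and -5.29 in nPGC-1α, with replicate 1 of nPGC-1α above the rest and a difference of 0.14 (SE 0.20, limma adjusted p 0.800). The probe A_55_P2744601 read -4.68, -4.75, -4.63, -4.66 and -4.81 against -4.68, -4.90, -4.98, -5.09 and -4.64, a difference of -0.15 (SE 0.10, limma adjusted p 0.593). Across the 10 arrays the 3 Chat probes correlated pairwise at -0.19, 0.01 and 0.24 (Pearson r, 10 arrays), so the probe chosen decides what is read for Chat.

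Slc5a7, which returns choline to the terminal, was measured by a pair of probes that did move together (r 0.95 over the 10 arrays and 0.70 without PGC-1αf/f replicate 2). The probe A_52_P128180 was at -5.16, -2.97, -4.98, -5.27 and -5.77 in PGC-1αf/f and at -6.15, -5.23, -5.35, -5.11 and -4.97 in nPGC-1α, with replicate 1 of nPGC-1α not well above background. The probe A_55_P2025690 was at -5.55, -2.99, -4.93, -5.21 and -5.34 and at -5.92, -5.30, -4.90, -4.91 and -5.21. Both were highest on PGC-1αf/f replicate 2 and otherwise overlapped between the groups. The differences were -0.53 (SE 0.46, limma adjusted p 0.663) and -0.44 (SE 0.43, limma adjusted p 0.703), and they shrank to -0.07 and 0.01 without that replicate.

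Slc18a3, which loads acetylcholine into vesicles, passed as well above background on 3 arrays in PGC-1αf/f but on none in nPGC-1α, and so was not tested. The mark is set against the background of each array and did not follow the level alone, since nPGC-1α replicate 3 at -6.62 did not receive it and PGC-1αf/f replicate 4 at -7.20 did. Its levels were -8.50, -5.03, -7.27, -7.20 and -7.39 in PGC-1αf/f and -7.48, -7.03, -6.62, -8.19 and -7.36 in nPGC-1α. Again PGC-1αf/f replicate 2 stood alone at the top and the other arrays overlapped (exact permutation p 0.754). No fold is given, since the mean of the brighter group lay below the average floor set by the dimmer group, that is, the lowest signal counted as well above background on each of its arrays.

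Most probes of the supply genes were thus highest on 1 control array. PGC-1αf/f replicate 2 was the highest of all 10 arrays for 4 of the 6 probes of synthesis and transport, and for 0 of the 12 probes of degradation and receptors. It was the highest array for 17.8% of all 34000 probes tested with 10 values. Some genes of the medial habenula stood high on the same array. Gpr151, an orphan receptor of habenular neurons, was at -2.95 there and at -6.13 to -5.01 on the other 9 arrays. Tac2, the neurokinin B precursor, was at 1.39 there and at -0.21 to 0.37 elsewhere. Of the nicotinic subunits typical of the habenula, Chrnb4 was at -3.72 there against -7.49 to -4.84, and Chrna3 at -3.74 against -6.81 to -4.08. Chrnb3 was at -7.12 there, its only array well above background. Chrna5 did not follow, at -5.26 against -5.75 to -4.74. Chrnb4, Chrna3 and Chrnb3 were named after their values were seen.

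For the 8 listed markers of the medial habenula, all of them tested, the mean deviation from each gene's average was 0.62 for PGC-1αf/f replicate 2, -0.26 to -0.01 for the remaining controls and -0.14 to 0.00 in nPGC-1α, and 3 of the 8 (Tac2, Gpr151 and Wif1) were highest on that replicate. By their brightest tested probes Pou4f1, Slc17a6, Calb2, Nwd2 and Tac1 lay there within the range of the other arrays. A dimmer Pou4f1 probe, A_52_P1171614, failed the filter and was well above background on that replicate alone. It was at -2.69 there, against a PGC-1αf/f median of -8.77 and -8.86 to -7.99 in nPGC-1α. Calb2, at -0.69 on that replicate, was the lowest of the PGC-1αf/f arrays. For the markers of basal forebrain cholinergic neurons, of which 5 of 6 were tested, the same score ran from -0.33 to 0.24 in PGC-1αf/f and from -0.21 to 0.18 in nPGC-1α, with 1 gene (Zic4) highest on that replicate. Isl1 failed the filter on dim probes, and Lhx8, a defining gene of these neurons, was well above background on 7 arrays. The part of habenular tissue in the levels of Chat, Slc5a7 and Slc18a3 was not tested.

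**Figure D2:**
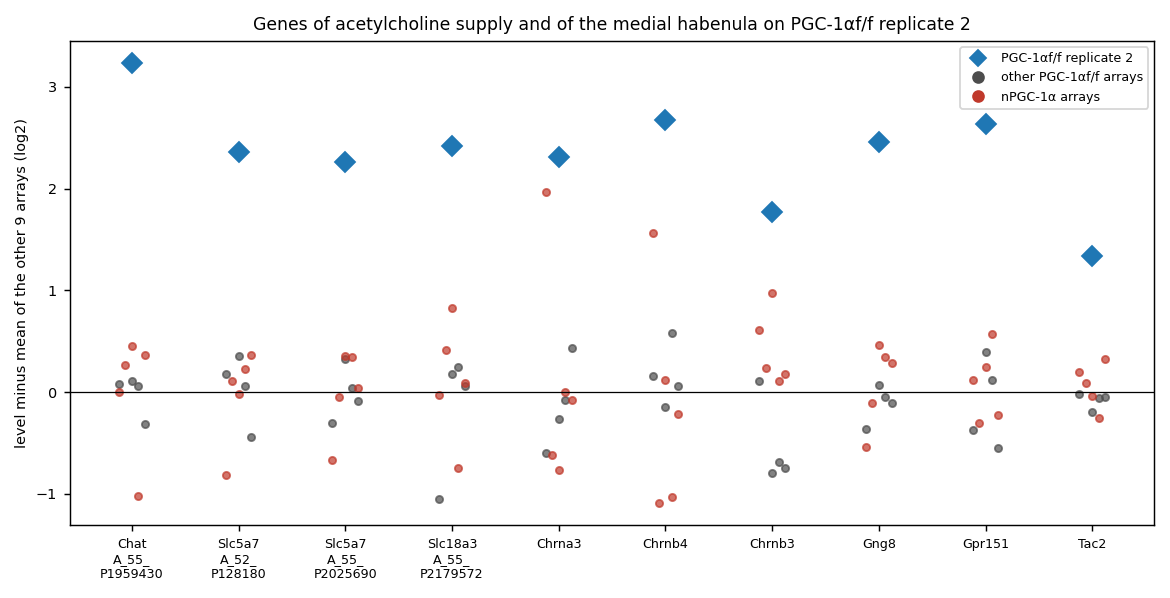
Level minus the mean of the other 9 arrays (y axis, log2) for 1 Chat probe, both Slc5a7 probes, Slc18a3, the nicotinic subunits Chrna3, Chrnb4 and Chrnb3, and Gng8, Gpr151 and Tac2. The diamond is PGC-1αf/f replicate 2, and circles are the other PGC-1αf/f (grey) and nPGC-1α (red) arrays. The diamond is the highest point for each of the 10 probes shown, which were chosen with their values known, so this is set by the choice. Habenular markers that lay within the range of the other arrays, and Chrna5, are not shown.

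Over the 10 arrays and 14890 named genes, the genes whose level was most like that of Slc5a7 were Gng8, a G protein gamma subunit (Pearson r 0.99, Spearman rho 0.98), Rnf138 (r 0.97) and Gm46519 (r 0.95). With the 2 arrays farthest from the median left out, r was 0.85, 0.69 and 0.37. On PGC-1αf/f replicate 2 Gng8 reached -0.34, while the other arrays ranged from -3.34 to -2.34. The Chat probe A_55_P2744601 was followed most closely by 4933439K11Rik (r 0.97), Hoxaas3 (r 0.95) and Olfr1394 (r 0.93), which became 0.91, 0.96 and 0.73 without the 2 farthest arrays. These are the closest of many genes over 10 arrays, given as a description with no p-value.

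Ache encodes acetylcholinesterase, which ends transmission in the synaptic cleft. The probe A_55_P2109326 was at -1.66, -2.25, -1.10, -1.21 and -1.36 in PGC-1αf/f and at -0.93, -0.87, -0.99, -1.05 and -1.57 in nPGC-1α. On this probe 4 nPGC-1α arrays lay above all PGC-1αf/f arrays and replicate 5 lay among them. The difference was 0.43 (95% interval -0.04 to 0.91, limma adjusted p 0.464, exact permutation p 0.0952). The probe A_55_P2109327 read -0.20, -0.60, -0.02, -0.07 and 0.18 against 0.34, 0.34, -0.07, 0.20 and -0.03, a difference of 0.30 (95% interval -0.03 to 0.63, limma adjusted p 0.465, exact permutation p 0.0873). Both probes were lowest on PGC-1αf/f replicates 1 and 2, and without these arrays the differences were 0.14 and 0.13.

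Bche encodes butyrylcholinesterase, a cholinesterase also found in glia. The probe A_66_P105175 ranged from -1.94 to -1.25 in PGC-1αf/f and from -1.85 to -1.25 in nPGC-1α, so that the ranges almost coincided (difference 0.04, SE 0.17, limma adjusted p 0.934). The dimmer probe A_52_P639223 ranged from -5.61 to -4.92 and from -6.08 to -4.98 (difference -0.24, SE 0.19, limma adjusted p 0.648). The pair had opposite signs and correlated at 0.12 over the 10 arrays. The genes most like Ache were Capn5, Mpi and Krt73 (r 0.93 each, and 0.80, 0.94 and 0.82 without the 2 farthest arrays), and those most like Bche were Man2c1os, Tbx15 and Rell1 (r 0.93, 0.91 and 0.90, and 0.88, 0.92 and 0.76).

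**Figure D3:**
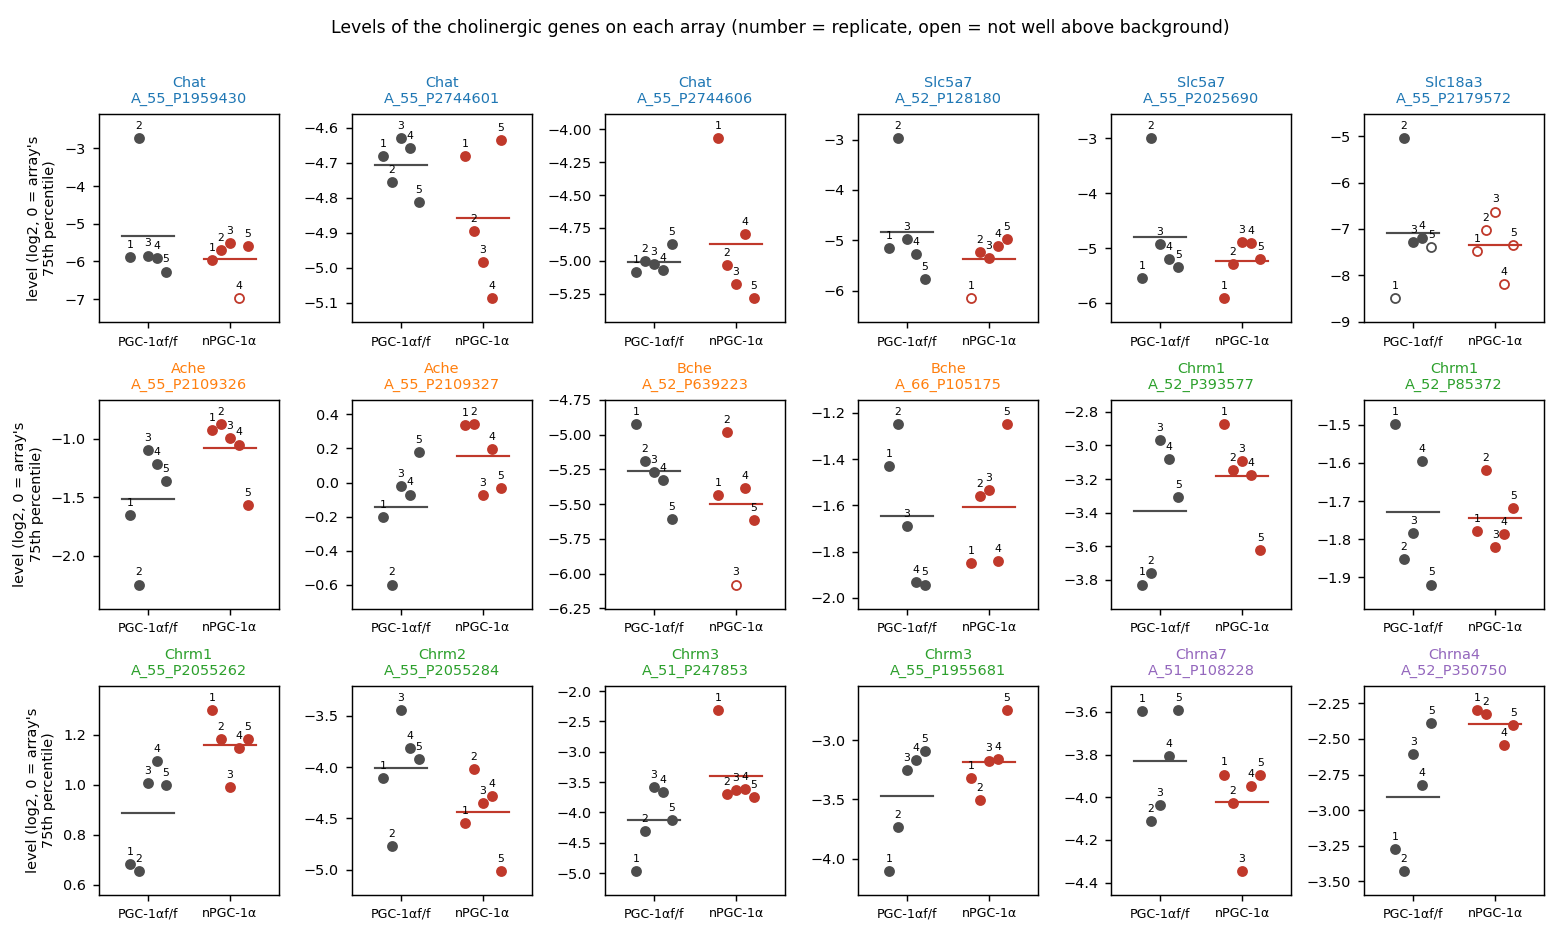
Level of each of the 18 probes (y axis, log2 relative to the 75th percentile of the array, a separate scale in each panel) on the PGC-1αf/f (grey) and nPGC-1α (red) arrays, with the replicate number beside each point and the group mean as a line. Open circles were not well above background, and nPGC-1α replicate 3 is missing for Chrna4 because its spot was marked as an outlier. PGC-1αf/f replicate 2 stands apart at the top for 1 Chat probe, both Slc5a7 probes and Slc18a3, and PGC-1αf/f replicates 1 and 2 lie lowest for Chrna4, Chrm3, Ache and 2 of the 3 Chrm1 probes.

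Among the receptors, Chrm1 encodes M1, the main muscarinic receptor of hippocampal pyramidal cells. The probe with the strongest signal, A_55_P2055262, was at 0.68, 0.66, 1.01, 1.10 and 1.00 in PGC-1αf/f and at 1.30, 1.18, 0.99, 1.15 and 1.18 in nPGC-1α. All 5 nPGC-1α arrays exceeded the PGC-1αf/f mean and 4 exceeded every PGC-1αf/f array. The difference was 0.27, a 1.21-fold higher level (SE 0.11, limma adjusted p 0.370, exact permutation p 0.0317). A second probe, A_52_P393577, gave 0.21 (SE 0.19, limma adjusted p 0.692) and followed the first at r 0.72, and the third, A_52_P85372, gave -0.01 (SE 0.10, limma adjusted p 0.964) and did not follow it (r -0.07).

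Chrm3 encodes M3, which shares the Gq pathway with M1. Its probe A_51_P247853 was at -4.96, -4.30, -3.58, -3.66 and -4.13 in PGC-1αf/f and at -2.32, -3.69, -3.63, -3.62 and -3.74 in nPGC-1α. The difference of 0.73, or 1.65-fold, was the largest of the 17 (SE 0.32, limma adjusted p 0.411, exact permutation p 0.103), and the only one with a fold above 1.5 among the 3 that passed the unadjusted threshold. It drew on 1 high array, nPGC-1α replicate 1, without which it was 0.46. The second probe, A_55_P1955681, was at -4.10, -3.73, -3.25, -3.16 and -3.09 against -3.32, -3.51, -3.17, -3.16 and -2.75, a difference of 0.29 (SE 0.21, limma adjusted p 0.609).

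Chrm2 encodes M2, an inhibitory receptor found on cholinergic terminals and on interneurons. Its levels were -4.11, -4.77, -3.44, -3.82 and -3.92 in PGC-1αf/f and -4.54, -4.02, -4.35, -4.28 and -5.01 in nPGC-1α. All 5 nPGC-1α arrays were below the PGC-1αf/f mean, with overlap through PGC-1αf/f replicates 1 and 2. The difference was -0.43 (95% interval -0.97 to 0.11, limma adjusted p 0.515, exact permutation p 0.159), opposite in sign to Chrm1 and Chrm3.

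The nicotinic subunits also had opposite signs. Chrna4, which forms the α4β2 receptor with Chrnb2, was at -3.27, -3.42, -2.61, -2.83 and -2.39 in PGC-1αf/f and at -2.30, -2.33, -2.54 and -2.40 on the nPGC-1α arrays 1, 2, 4 and 5, since the spot of replicate 3 was marked as an outlier and dropped. The difference was 0.51, or 1.42-fold (SE 0.20, limma adjusted p 0.369, exact permutation p 0.0714 with n = 5 and n = 4). With the outlier spot kept, at -2.25, it was 0.54. Chrna7, the subunit of the homomeric α7 receptor of hippocampal interneurons, was at -3.60, -4.11, -4.04, -3.81 and -3.59 against -3.89, -4.03, -4.34, -3.95 and -3.90, and every nPGC-1α array lay below the PGC-1αf/f mean (difference -0.19, SE 0.14, limma adjusted p 0.593, exact permutation p 0.198). Chrnb2, the partner of Chrna4, could not be tested, because outlier marks left too few values.

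The receptor levels in PGC-1αf/f fell into a pattern by array. Replicates 1 and 2 were the lowest of the 5 PGC-1αf/f arrays for 6 of the 8 receptor probes and for both Ache probes, and for 0 of the 6 probes of synthesis and transport. Over all probes tested with 10 values these arrays were the lowest of their group for 8.41%. On the same arrays the 7 markers of hippocampal excitatory neurons, all tested, had a mean deviation of -0.25 and -0.30, while replicates 3 to 5 lay between 0.01 and 0.17 and nPGC-1α between -0.00 and 0.12. Slc17a7, the vesicular glutamate transporter of these neurons, was at -0.85 and -1.17 on them and between -0.31 and 0.00 on the other 8 arrays. The astrocyte and microglia scores were higher there than on the other 8 arrays, and the oligodendrocyte score was not. For astrocytes the margin on replicate 2 was small (0.10 against at most 0.08). No tested gene of the astrocyte or microglia list was highest on replicate 2. The score of the 4 oligodendrocyte markers was -0.44 on PGC-1αf/f replicate 1 and -0.07 on replicate 2. It was -0.31 to 0.33 on the other 8 arrays. On PGC-1αf/f replicates 1 and 2 the score of the 4 astrocyte markers was 0.32 and 0.10 and that of the 3 tested of 4 microglia markers 0.29 and 0.14, against -0.31 to 0.08 and -0.14 to 0.05 on the other 8 arrays. The part of any of these cell types in the receptor differences was not tested.

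Leaving both arrays out was chosen after these values were seen. The differences then were 0.13 for Chrm1 (A_55_P2055262), 0.39 and -0.01 for the Chrm3 probes, 0.21 for Chrna4 and -0.21 for Chrna7. Chrm2 went to -0.71, and became the only probe past the unadjusted threshold (limma p 0.00982, adjusted p 0.536). The limma count at an adjusted p of 0.05 remained 0.

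The slides gave like values only in part. On slide 1, with 4 arrays per group, the differences were 0.29 for Chrm1 (A_55_P2055262), 0.81 for Chrm3 (A_51_P247853), 0.64 for Chrna4 and 0.59 and 0.43 for the Ache probes. On slide 2, with 1 array per group and no test, they were 0.18, 0.39, -0.01, -0.21 and -0.21. Chrm2 was at -0.26 on slide 1 and -1.09 on slide 2, and the Slc5a7 probes went from -0.87 and -0.59 to 0.80 and 0.13.

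**Figure D4:**
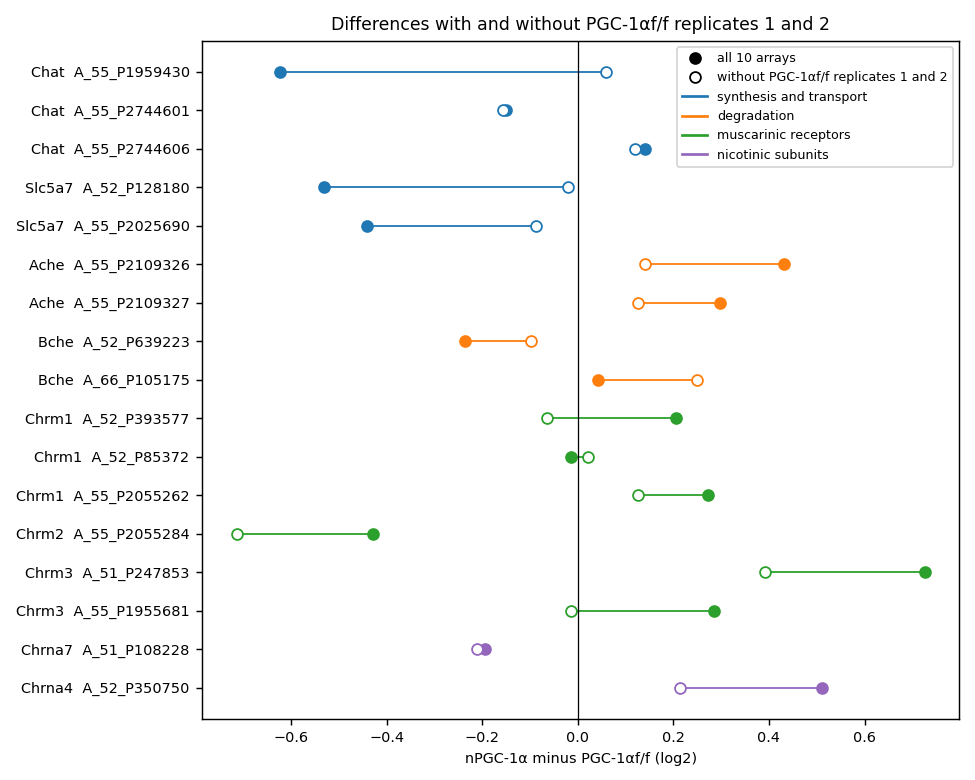
Difference of each of the 17 tested probes (x axis, nPGC-1α minus PGC-1αf/f, log2) with all 10 arrays (filled) and without PGC-1αf/f replicates 1 and 2 (open), coloured by role. Most receptor and Ache points move towards 0, Chrm2 moves away from 0 to -0.71, and the supply genes that were high on replicate 2 move close to 0.

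Other genes of the pathway were taken from lists of related function. Of 53 such genes 47 were tested by their brightest probe, with a median difference of -0.00. Among these 47, limma called 0 at an adjusted p of 0.05 and 1 at an unadjusted p of 0.05, against 0.00255% and 11.9% of all probes tested. That gene was Pcyt1b, an enzyme that turns phosphocholine into CDP-choline for membrane lipids. It was at -1.07, -1.54, -0.70, -0.77 and -0.81 in PGC-1αf/f and at -0.37, -0.41, -0.37, -0.40 and -0.63 in nPGC-1α. The groups did not overlap, as for 2.74% of all probes with 10 values, and PGC-1αf/f replicates 1 and 2 were again the lowest arrays. The difference was 0.54 (SE 0.15, limma adjusted p 0.222, exact permutation p 0.00794). Its paralogue Pcyt1a, expressed more widely, had a difference of -0.15 (SE 0.08, limma adjusted p 0.493).

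Chrnb4 (-0.80, limma adjusted p 0.625) and the choline transporter-like gene Slc44a3 (-0.41, limma adjusted p 0.653) passed the filter only through PGC-1αf/f, where they were higher, with all 5 of its arrays well above background against 1 and 2 nPGC-1α arrays, so no count of signs is given over the whole list.

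Of the other nicotinic subunits 9 of 14 were tested, and Chrne (0.28, limma adjusted p 0.455) and Chrna5 (0.31, limma adjusted p 0.509) had the smallest p. Chrm4 (-0.12, limma adjusted p 0.616) and Chrm5 (-0.09, limma adjusted p 0.918), the other muscarinic receptors, were both lower in sign. The 8 chaperones and prototoxins of nicotinic receptors help assemble or restrain the channels. By their brightest probes they split into 4 higher and 4 lower and stayed within -0.13 to 0.08. Ly6h was at -0.13 (limma adjusted p 0.659) and Lynx1 at 0.07 (limma adjusted p 0.749). Dimmer probes of Ric3 were at 0.13 (A_52_P34378), -0.17 (A_52_P354965) and 0.52 (A_52_P665295, limma adjusted p 0.429), against -0.002 for its brightest. The cholinesterase anchors, which tether acetylcholinesterase, were Prima1 at 0.15 (limma adjusted p 0.708) and Colq at -0.07 (limma adjusted p 0.802).

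Below the receptors, the 9 tested genes of signalling through M1 and M3 had 3 positive and 6 negative signs, with a median difference of -0.07. Among the brightest probes of each gene, the M-current channels Kcnq5 and Kcnq3, which M1 receptors close, had the smallest p with 0.29 (limma adjusted p 0.447) and 0.32 (limma adjusted p 0.452). Itpr1, the calcium release channel opened by IP3, was at -0.12 by its brightest probe (limma adjusted p 0.649) and at -0.62 by a dimmer one, A_55_P2745593 (limma p 0.0031, adjusted p 0.191). By their brightest probes the 6 genes of signalling through M2 and M4 stayed between -0.12 and 0.05. Gnai1 was at -0.12 (limma adjusted p 0.666) and Gnao1 at 0.05 (limma adjusted p 0.868). Dimmer probes of Gnao1 were at 0.01 (A_51_P129065) and 0.34 (A_52_P205031, limma adjusted p 0.501).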

How the data were processed

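Total RNA of hippocampus was hybridised to 1-colour Agilent arrays, 1 per mouse, and groups and replicate numbers came from the labels. The deposited scanner files hold the spot intensity after background subtraction and trend correction within the array, made with Feature Extraction 11.5.1.1 per the file headers, a version other than that in the methods. The authors' own log2 values, for 41606 probes made with GeneSpring, served as an alternative, and how those probes were chosen is not stated.

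Spots of controls and outlier spots were dropped. Log2 intensities were averaged per probe, and the log2 75th percentile of the array was subtracted. A probe was kept when all 5 arrays of a group had it well above background and each group had at least 3 values (39142 of 56605). Groups were compared with lmFit and eBayes of limma 3.58.1 (R 4.3.3), two-sided, without covariates, with Benjamini-Hochberg adjustment over all probes kept, and single values with exact permutation tests. Genes with several probes were represented by the brightest tested probe. Symbols came from RefSeq (GRCm38.p6) and named 59.6% of probes. Python 3.11.15 with pandas 2.3.3 read the files.

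The genes, the lists and the tests were chosen with earlier results of these data known. Named outside the 10 genes are those past an unadjusted p of 0.05 in each list, or otherwise the 2 with the smallest p. The 3 genes most like each tested gene of supply or degradation, and cell type markers where a gene stood apart on 1 array, are named too. Pcyt1a, Slc44a3, Itpr1, Ric3, Chrna3, Chrnb3 and Chrnb4 were named after their values were seen. The alternatives were other scalings, background corrections, filters, variance models and tests, the slide or the replicate number as a block, the Y-linked transcripts as a covariate or a filter, and leaving out arrays. The limma test was checked on simulated data. Precision is set by the number of mice. No probe sequence was used here, and the windows before gene starts came from a RefSeq table of GRCm38.p6.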

Additional observations from a re-analysis of the deposited data

Results flagged for a closer look

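Dixon's test on the arrays of a group marked 8 of 58 groups of values, where chance alone marks about 1 in 20. PGC-1αf/f replicate 2 lay far above the other PGC-1αf/f arrays for the Chat probe A_55_P1959430 (-2.72 against -6.27 to -5.84), for both Slc5a7 probes (-2.97 against -5.77 to -4.98, and -2.99 against -5.55 to -4.93) and for the score of medial habenula markers (0.62 against -0.26 to -0.01).

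Among the nPGC-1α arrays, replicate 1 was high for the Chrm3 probe A_51_P247853 (-2.32 against -3.74 to -3.62), and replicate 5 was low for the Ache probe A_55_P2109326 (-1.57 against -1.05 to -0.87). The score of striatal markers was 0.31 on PGC-1αf/f replicate 1 against -0.24 to -0.12, and that of choroid plexus markers 2.88 on nPGC-1α replicate 3 against -1.14 to -0.24. The part of any of these markers in the cholinergic differences was not tested.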

How the results depend on the processing

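The limma count at an adjusted p of 0.05 stayed at 0 under all 27 alternatives run for the probes of the 10 genes. It was also 0 under all 28 for the other cholinergic genes, and the smallest adjusted p of any of the 17 probes was 0.206. Over all 39142 probes 1 passed this threshold in the main test and 16 with median centring. Without the filter on dim probes, 3871 of 54980 probes passed as higher and 748 as lower in nPGC-1α. In this section directions and medians followed the brightest tested probe of a gene, or the mean of its probes in 1 setting. So taken, the directions of Chat, Ache, Chrm1, Chrm2, Chrna7 and Chrna4 held under all 28. Other probes of Chat (A_55_P2744606, 0.14) and Chrm1 (A_52_P85372, -0.01) had the opposite sign in the main test. Those of Ache, Chat (A_55_P1959430) and Chrm1 (A_52_P393577) had the same sign. Of the 17 probes, the number at an unadjusted p of 0.05 was 3 in the main test (11.9% of all probes), 1 with the replicate block (16.6%), 1 without PGC-1αf/f replicates 1 and 2 (6.59%, chosen after seeing the data), 0 by the exact Mann-Whitney U test (7.54%), and 0 to 4 when 1 array was left out, with 0 without PGC-1αf/f replicate 1 or nPGC-1α replicate 1 and 1 without PGC-1αf/f replicate 2, nPGC-1α replicate 2 or nPGC-1α replicate 4. Of the other genes, 1 passed in the main test, 2 with quantile normalisation, with the percentile of probes detected on all arrays, with the authors' log2 values, with outlier spots kept, with the slide or the replicate block, with array weights, with the mean of a gene's probes and by the exact Mann-Whitney U test, 3 on slide 1 or with Y-linked transcripts as a covariate, 4 on the arrays with Y-linked transcripts alone, and 1 to 4 when 1 array was left out. The share of all probes past this threshold ran from 7.24% to 16.6% under the alternatives listed for the other genes. For either count it ran from 7.92% to 15.4% when 1 array was left out.

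On the arrays with Y-linked transcripts (1 PGC-1αf/f and 3 nPGC-1α) the median difference of degradation was 0.083 and of receptors 0.47. The receptor median was -0.014 without PGC-1αf/f replicates 1 and 2, where Chrm3 turned to -0.014. Slc5a7 turned to 0.21 on the arrays with Y-linked transcripts, and ran from -0.63 to 0.011 when 1 array was left out, with 0.011 without PGC-1αf/f replicate 2. Bche turned to -0.12 on slide 1, -0.10 with the mean of its probes, -0.039 with the Y-linked covariate and -0.11 on the arrays with Y-linked transcripts, and ran from -0.047 to 0.14 when 1 array was left out. The cause of these turns was not tested. The labels give no pairing. Same-numbered arrays deviated together at r 0.08 to 0.36, above 0.1 in all pairs but replicates 2 (0.08), and arrays 1, 2 and 5 correlated best with their own number, a hint from the data and not a pairing in the labels. Same-numbered arrays also shared a position, with replicates 1 to 4 in columns 1 to 4 of slide 1 and replicates 5 alone on slide 2. Number and position therefore cannot be told apart. With the replicate block limma gave an unadjusted p of 0.058 for Chrm1, 0.108 for Chrm3 and 0.036 for Chrna4. Slc18a3 lay near background, which limits any statement on it.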
